A study of Mus musculus with 6 samples.

Results

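The genes described here encode the collagens, the laminins and 5 other proteins of the basement membrane and pericellular matrix, namely the nidogens (Nid1 and Nid2), perlecan (Hspg2), agrin (Agrn) and fibronectin (Fn1). They were taken by symbol: every row of the deposited gene table named as a collagen alpha chain or a laminin chain, plus those 5. This gave 58 of 30077 genes, made up of 42 collagen chains, 11 laminin chains and the 5 others. RNA came from bEnd.3, a transformed mouse brain endothelial cell line labelled wild type. In 3 libraries the cells had been given mitochondria isolated from MLO-Y4, a mouse osteocyte-like line, in 100 µl of medium, and in 3 control libraries they had been given the same volume of medium alone. All were collected after 24 h. The amount of mitochondria is not stated in the labels. Whether the 3 libraries of each group are separate cultures is not stated, so the p-values cover the spread among these libraries only, and that spread may be technical. In bulk RNA, fewer cells of a type and less RNA per cell cannot be told apart.

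The basement membrane is a thin sheet of matrix under the endothelium. Laminins are trimers of an alpha, a beta and a gamma chain. Many of them form one network at the cell surface, and collagen IV, a trimer of alpha chains, forms the other. Nidogens and perlecan link both networks. Endothelial basement membranes contain laminins built on the alpha 4 chain (Lama4) or the alpha 5 chain (Lama5), and the collagen IV of most tissues, vessels included, is built from the chains of Col4a1 and Col4a2. Fibronectin forms fibrils that bind integrins, and fibrillar collagens lie mostly outside the basement membrane.

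Library totals ranged from 59651087 to 63581460 counts in the mitochondria libraries and from 64609635 to 65576084 in the control libraries. Reads of a ribosomal RNA locus listed as CT010467 and of Lars2, a mitochondrial leucyl-tRNA synthetase, moved with the groups: together they made up 6.31 ± 1.80% of counts in mitochondria libraries and 2.81 ± 0.948% in control libraries (SD, n = 3 each). Of 12 endothelial markers 11 passed the filter described below and Vwf did not, with summed levels of 1163 to 1216 FPKM in mitochondria libraries and 1207 to 1223 FPKM in control libraries. FPKM, the deposited fragment level scaled to exon length and library size, is the level per length used here. In scaled counts (CPM, defined below) Pecam1, Egfl7 and Esam were higher in every mitochondria library than in any control. Among all tested genes 10.1% were. Their log2 fold changes were 0.071, 0.19 and 0.13, and those of Emcn and Plvap were negative (−0.061 and −0.0088). No endothelial marker passed in edgeR, though Esam and Egfl7 came close (adjusted p = 0.0532 and 0.0579). Of 12 osteocyte and osteoblast markers 10 were in the table and 1 passed (Spp1), with sums of 4.60 to 5.58 FPKM in mitochondria libraries and 4.13 to 4.85 FPKM in control libraries. Spp1 itself had 4.93, 4.44 and 4.35 FPKM in mitochondria libraries and 4.28, 3.64 and 3.79 FPKM in control libraries. Its groups did not overlap, and it did not pass the edgeR test described below (log2 fold change 0.29, adjusted p = 0.314). Bglap was at 0 in every library. Of 12 fibroblast and mural markers 2 passed (Pdgfra and Acta2), with sums of 2.76 to 9.75 FPKM in mitochondria libraries and 4.30 to 6.68 FPKM in control libraries, and Thy1 was at 0 in every library. A fit without the counts of CT010467, Lars2 and other structural RNA genes is given below. A fit with the share of CT010467 and Lars2 as a covariate is given there too. The part of the marker genes in the results was not tested.

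Fn1, Lamb1, Col5a2 and Col12a1 fell in cells given mitochondria. Fn1 fell by 11.9%, Lamb1 fell by 14.0%, Col5a2 fell by 19.3% and Col12a1 fell by 19.8%, while both main collagen IV chains did not pass and differed by under 1% in scaled counts. The filter kept genes that reached 1 FPKM in 3 or more libraries, edgeR's quasi-likelihood test was run on these 11255, and changes were called where p, after Benjamini-Hochberg adjustment over all of them, was under 0.05. Of the 58 genes 20 passed the filter (9 collagens, 6 laminins and the 5 others), and all 20 exceeded 1 FPKM in every library. Of these 20, 4 fell, where 1.10% of all tested genes fell (124 of 11255) and 2.09% changed in either direction. None of the 20 rose in edgeR, where 0.986% of all tested genes rose. At an unadjusted p under 0.05, 7 of the 20 were lower and 1 was higher, where 8.28% of all tested genes were lower and 7.82% higher, and neither DESeq2 nor limma called a member higher. A further fit left out the counts of CT010467, Lars2 and the structural RNA genes Rn7s1, Rn7s2, Rn7sk and Rmrp before scaling. The same 4 then fell in edgeR, where 1.15% of all genes fell. Their log2 fold changes were −0.18 for Fn1, −0.22 for Lamb1, −0.31 for Col5a2 and −0.32 for Col12a1. When the share of CT010467 and Lars2 was instead added to the edgeR model as a covariate, none of the 20 was called, where 0.0178% of all genes fell. At an unadjusted p under 0.05, 4 of the 20 were then lower and 0 higher, where 3.29% of all genes were lower and 3.07% higher. The log2 fold changes with the covariate were −0.15 for Fn1, −0.28 for Lamb1, −0.39 for Col5a2 and −0.28 for Col12a1, with adjusted p from 0.207 to 0.772.

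The count of 4 moved with the method. With DESeq2 5 fell, where 2.93% of all genes fell, and the fifth was Hspg2. With limma on log2(FPKM + 1) and log2(FPKM + 0.1) 2 fell (Col5a2 and Lamb1), where 0.284% and 0.267% of all genes fell, and Fn1 and Col12a1 did not pass. With library totals as the only scaling 5 fell, where 2.59% of all genes fell, and with the replicate number as a block 5 fell, where 1.87% did. Without mitochondria 1, 2 or 3 the 4 calls held, where 0.640%, 1.19% and 0.373% of all genes fell. Without control 1, 2 or 3 the counts were 3, 3 and 2, where 0.631%, 0.400% and 0.338% of all genes fell.

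Fn1 had 433 ± 5.81 FPKM in mitochondria libraries and 513 ± 21.2 FPKM in control libraries, and Nid1 had 473 ± 15.6 FPKM in mitochondria libraries and 478 ± 13.2 FPKM in control libraries (SD, n = 3 each), with the mean of Nid1 above that of Fn1 in mitochondria libraries and below it in control libraries. Next came Col4a1 at 208 ± 3.24 FPKM in mitochondria and 219 ± 3.73 FPKM in control libraries, and Col4a2 at 153 ± 4.50 FPKM in mitochondria and 159 ± 1.65 FPKM in control libraries. Lamc1, the gamma 1 chain of most laminins, followed at 69.4 ± 0.711 FPKM in mitochondria and 76.7 ± 2.28 FPKM in control libraries. At the low end, Nid2 and Agrn lay between 1.36 and 1.92 FPKM in all 6 libraries. Fn1, Nid1, Col4a1 and Col4a2 together held 81.9 ± 0.117% of the counts of all 58 genes in mitochondria libraries and 81.6 ± 0.298% in control libraries (SD, n = 3 each).

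**Figure D1:**
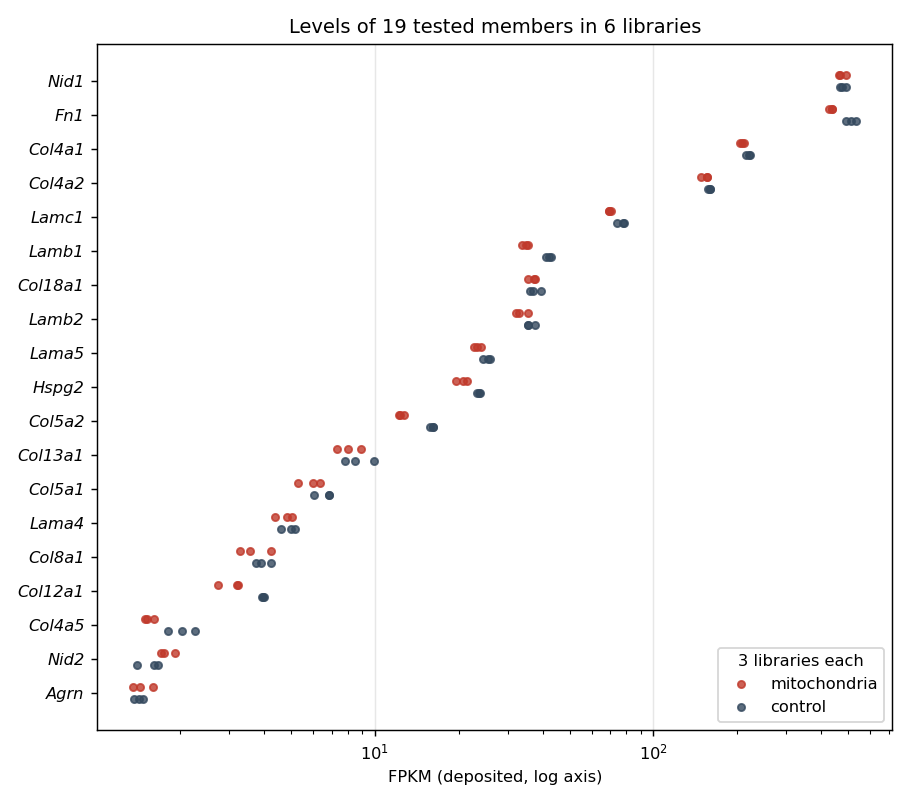
Deposited FPKM (log axis) of 19 of the 20 tested genes, 1 point per library, with the 3 mitochondria libraries drawn above the 3 control libraries of each gene. Fn1, Nid1, Col4a1 and Col4a2 lie above 100 FPKM. On this scale the median of all genes was −0.05 on the log2 scale. Of the genes drawn 10 do not overlap on the lower side and 1 (Nid2) on the higher, where 21.4% and 4.14% of all tested genes did.

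Fibronectin carried most of the net difference in summed level. Fn1 (ENSMUSG00000026193, GRCm38 chromosome 1: 71585520 to 71653175, minus strand) had 5770, 5887 and 5895 CPM (library-size-scaled counts that also carry edgeR's TMM factors) in mitochondria libraries, against 6438, 6796 and 6681 CPM in control libraries. Every mitochondria library lay below every control library. The log2 fold change of mitochondria over control was −0.18 (SE 0.025, edgeR adjusted p = 0.00345), a fall of 11.9%. The call held with each library left out in turn. The gene shares 292 of its 11685 exonic bases with an antisense gene, and whether counting used strand is not given in the sources used here. The splice forms of fibronectin cannot be separated in counts per gene.

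Summed over all 58 genes, the level was 15326, 15416 and 15474 CPM in mitochondria libraries, against 16077, 16416 and 16343 CPM in control libraries. The group means differed by −873.6 CPM, of which Fn1 made up −787.6 CPM. Without Fn1 the sums were 9555, 9529 and 9579 CPM in mitochondria libraries and 9639, 9620 and 9662 CPM in control libraries. The groups did not overlap in either sum, and the second difference was −85.96 CPM. That difference is net of genes that moved in opposite directions. Lamb1, for example, averaged 397 CPM in mitochondria and 462 CPM in control libraries, and Nid1, which was not called, 3796 and 3673 CPM. As a share of all counts, the 58 genes took 1.52 ± 0.0221% in mitochondria libraries and 1.66 ± 0.0381% in control libraries (SD, n = 3 each).

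Among the fibrillar collagens 2 of 11 chains passed the filter, Col5a1 and Col5a2. Both are chains of collagen V, a minor fibrillar type that sets the diameter of collagen I fibrils. A further collagen V chain, Col5a3, was below the filter, with 39, 58 and 63 counts in mitochondria libraries and 49, 34 and 80 in control libraries. Col5a2 (ENSMUSG00000026042, chromosome 1: 45374321 to 45503282) had 132, 144 and 137 CPM in mitochondria libraries, against 174, 169 and 169 CPM in control libraries. Every mitochondria library was below every control library. The log2 fold change was −0.31 (SE 0.042, edgeR adjusted p = 0.00345), and Col5a2 was called with each library left out in turn. Its partner Col5a1, the alpha 1 chain present in every collagen V trimer, had 51.3, 64.4 and 59.4 CPM in mitochondria libraries and 58.0, 63.8 and 65.2 CPM in control libraries. These groups overlapped, and the log2 fold change was −0.095 (SE 0.077, edgeR adjusted p = 0.601).

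The genes of collagen I and III, the main interstitial collagens, were below the filter of 1 FPKM. Col1a1 had 142, 158 and 159 counts in mitochondria libraries and 308, 280 and 194 counts in control libraries. All mitochondria libraries were below all controls in CPM, but in the edgeR fit without a filter the log2 fold change of −0.63 (SE 0.22) did not pass (adjusted p = 0.521). In that fit 0.0579% of 27651 genes fell. Col1a2, whose chain joins that of Col1a1 in the collagen I trimer, had 3, 4 and 6 counts in mitochondria libraries and 10, 11 and 30 in control libraries. Col3a1 had 41, 31 and 46 counts against 48, 75 and 35 in the control libraries, which overlap. Col3a1 is the tail-to-tail neighbour of Col5a2, with 24614 bases between them, and its level was 0.056 ± 0.0117 FPKM in mitochondria libraries and 0.0713 ± 0.0279 FPKM in control libraries, where Col5a2 had 12.4 ± 0.247 FPKM in mitochondria and 16.0 ± 0.219 FPKM in control libraries (SD, n = 3 each).

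Col12a1 encodes collagen XII, which binds to the surface of collagen fibrils, and was the only one of 8 fibril-associated (FACIT) chains in the table to pass the filter. It had 54.8, 49.1 and 56.9 CPM in mitochondria libraries, against 66.8, 65.9 and 67.9 CPM in control libraries. No mitochondria library reached the range of the 3 controls. The log2 fold change was −0.32 (SE 0.058, edgeR adjusted p = 0.0176). The call was lost without control 1, 2 or 3 (adjusted p = 0.0515, 0.0577 and 0.0862 in edgeR).

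**Figure D2:**
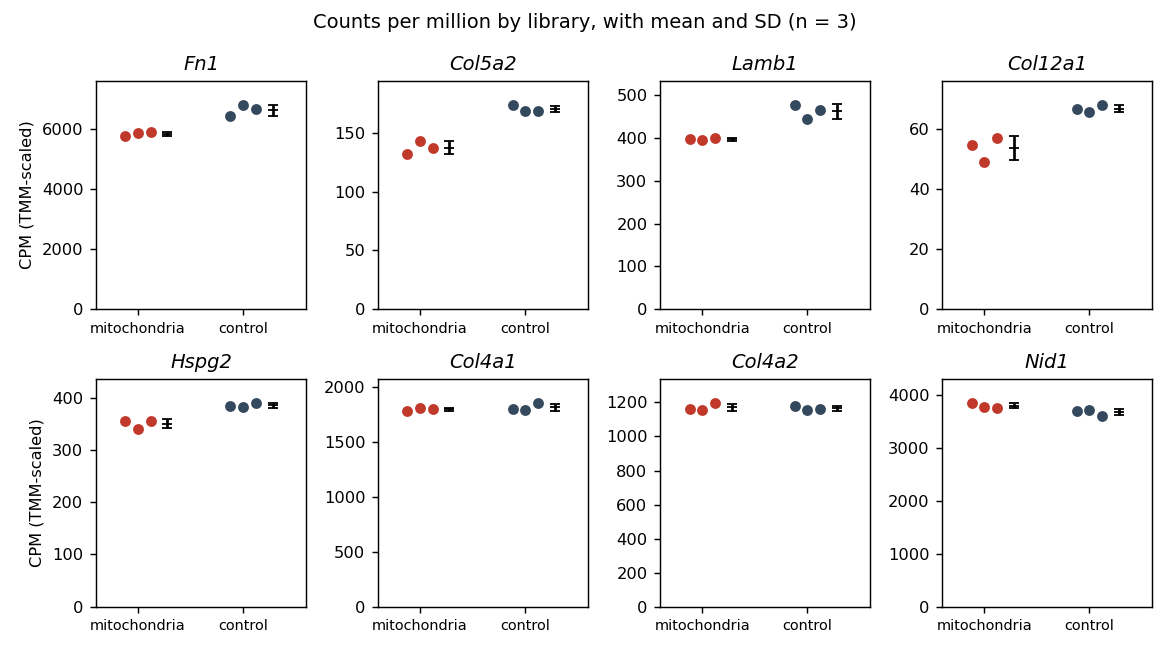
TMM-scaled CPM of 8 genes by library (axes from 0), with 3 mitochondria libraries left of 3 control libraries and the mean ± SD beside each group. In the upper row, Fn1, Col5a2, Lamb1 and Col12a1, no mitochondria library reaches the control range. In the lower row, Col4a1 and Col4a2 overlap between the groups. Hspg2 (lower) and Nid1 (higher) do not overlap either, though neither was called in edgeR.

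The collagen IV network was carried by Col4a1 and Col4a2, and neither passed the test. Col4a1 (ENSMUSG00000031502, chromosome 8: 11198423 to 11312826, minus strand) had 1783, 1808 and 1802 CPM in mitochondria libraries and 1798, 1791 and 1852 CPM in control libraries. Its log2 fold change was −0.013 (SE 0.026, edgeR adjusted p = 0.858). Col4a2 (ENSMUSG00000031503, chromosome 8: 11312805 to 11449287, plus strand) had 1163, 1157 and 1196 CPM in mitochondria libraries and 1180, 1154 and 1160 CPM in control libraries, with a log2 fold change of 0.0091 (SE 0.027, edgeR adjusted p = 0.913). The groups overlapped for both genes in CPM, while in FPKM every mitochondria library was below every control. With FPKM, TPM, library totals or the covariate the sign for Col4a2 was negative. The 95% intervals of the log2 fold changes were −0.07 to 0.04 for Col4a1 and −0.05 to 0.07 for Col4a2.

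The pair lies head to head, and in the deposited coordinates the annotated 5′ ends overlap by 22 bases, all in capitals because both genes hold them, and shown because both starts fall within them (chr8:11312805-11312826, plus strand, from RefSeq, build GRCm38.p6).
Col4a1 and Col4a2 shared 5′ end: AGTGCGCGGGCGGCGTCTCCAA
The ratio of Col4a1 to Col4a2 FPKM was 1.36, 1.39 and 1.34 in mitochondria libraries and 1.35, 1.38 and 1.42 in control libraries. The log2 ratio of their counts differed between groups by −0.022 (two-sided exact permutation p = 0.5, adjusted p = 0.5 over the 4 chain ratios computed).

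The other 4 chains of the family are also arranged in head-to-head pairs but were much lower. Col4a5, whose chain forms the minor collagen IV trimers, had 11.5, 11.9 and 12.6 CPM in mitochondria libraries and 15.3, 16.5 and 13.6 CPM in control libraries. The groups did not overlap, yet the log2 fold change of −0.33 (SE 0.11) did not pass (edgeR adjusted p = 0.165). Its head-to-head neighbour Col4a6, 1308 bases away on the X chromosome, had 18, 4 and 30 counts in mitochondria libraries and 19, 16 and 33 in control libraries. Per length, Col4a5 had 1.54 ± 0.0629 FPKM in mitochondria and 2.03 ± 0.222 FPKM in control libraries, where Col4a6 had 0.0302 ± 0.0231 FPKM in mitochondria and 0.0383 ± 0.0157 FPKM in control libraries (SD, n = 3 each). Col4a3 and Col4a4, 71 bases apart on chromosome 1, had 28 to 70 counts per library and overlapped between groups.

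The remaining collagens that were tested did not pass. Col18a1, whose product carries the endostatin fragment, had 299, 295 and 302 CPM in mitochondria libraries and 282, 281 and 310 CPM in control libraries. Control 3 was above all mitochondria libraries and controls 1 and 2 were below them, and the log2 fold change, negative with FPKM, TPM or library totals, was 0.036 (SE 0.042, edgeR adjusted p = 0.737). Col13a1, a transmembrane collagen, was at −0.052 (SE 0.091) and Col8a1, a short-chain collagen of vascular matrix, at −0.038 (SE 0.099), both with overlapping groups. Col15a1, the other multiplexin, had 13 counts in mitochondria 2, 5 in control 2 and 0 in the other 4 libraries.

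Among the laminins 1 of 6 tested chains changed. Lamb1 (ENSMUSG00000002900, chromosome 12: 31265234 to 31329644), the beta 1 chain, had 397, 394 and 401 CPM in mitochondria libraries, against 476, 443 and 466 CPM in control libraries. The mitochondria libraries were close together and all below every control. The log2 fold change was −0.22 (SE 0.035, edgeR adjusted p = 0.00893), and the call was lost without control 3 (edgeR adjusted p = 0.0656). Lamb2, the beta 2 chain that can take the place of beta 1, had 244, 230 and 232 CPM in mitochondria libraries and 241, 250 and 240 CPM in control libraries, with overlap and a log2 fold change of −0.049 (SE 0.037, edgeR adjusted p = 0.575).

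Per length both beta chains were at similar levels. The ratio of Lamb1 to Lamb2 FPKM was 1.04 ± 0.0324 in mitochondria libraries and 1.16 ± 0.0661 in control libraries (SD, n = 3 each), and every mitochondria library was below every control. The log2 ratio of counts differed by −0.17 between groups (two-sided exact permutation p = 0.1, the smallest that 3 against 3 libraries can give, adjusted p = 0.2 over 4 ratios). For collagen V the ratio of Col5a1 to Col5a2 FPKM was 0.474 ± 0.0352 in mitochondria libraries and 0.410 ± 0.0313 in control libraries. The log2 ratio of counts differed by 0.21 (exact permutation p = 0.1, adjusted p = 0.2), with mitochondria 1 and control 3 nearly level at −1.37.

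**Figure D3:**
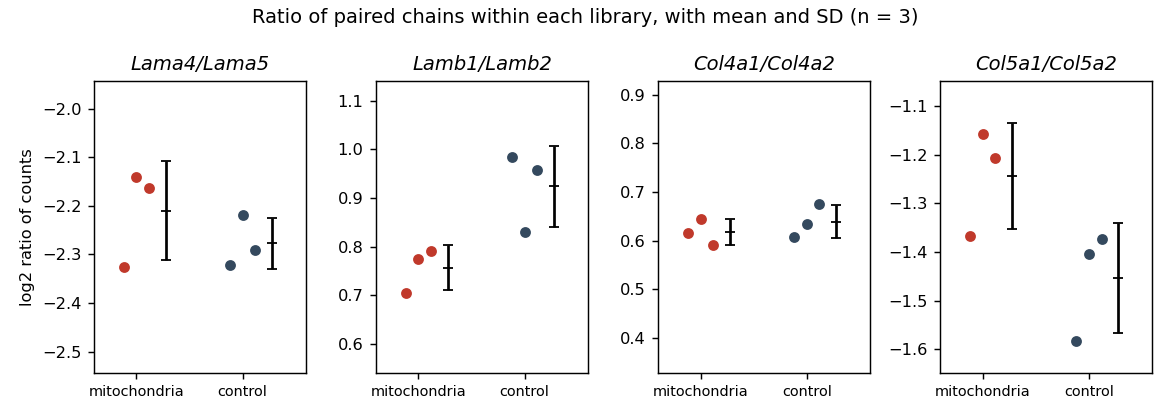
Log2 ratio of the counts of paired chains in each library, mitochondria left of control, with mean ± SD (n = 3) and axes of equal height. Lamb1/Lamb2 was lower and Col5a1/Col5a2 higher in every mitochondria library than in any control, while Lama4/Lama5 and Col4a1/Col4a2 overlapped.

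The alpha and gamma chains gave smaller differences. Lama5, the broadly expressed alpha chain, had 299.7, 304 and 316 CPM in mitochondria libraries and 311, 315 and 329 CPM in control libraries, and its log2 fold change was −0.054 (SE 0.036, edgeR adjusted p = 0.519). Lama4, the other endothelial alpha chain, had 59.8, 68.9 and 70.7 CPM in mitochondria libraries and 62.2, 67.7 and 67.2 CPM in control libraries, at 0.016, negative with FPKM, TPM, library totals or the covariate (SE 0.065, edgeR adjusted p = 0.934). Both overlapped between groups, and per length Lama4 was at 0.204 ± 0.014 of the level of Lama5 in mitochondria libraries and 0.195 ± 0.00704 in control libraries. The log2 ratio of their counts differed by 0.067 between groups (exact permutation p = 0.4, adjusted p = 0.5).

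Lamc1 had 656, 674 and 662 CPM in mitochondria libraries, against 686, 703 and 719 CPM in control libraries. The groups did not overlap, but the log2 fold change of −0.082 (SE 0.030) did not pass (edgeR adjusted p = 0.214). Lama3 and Lamb3, an alpha and a beta chain, were below the filter. Lama3 had 126, 51 and 92 counts in mitochondria libraries and 99, 149 and 122 counts in control libraries, and Lamb3 had 78, 86 and 77 counts in mitochondria libraries and 88, 85 and 28 counts in control libraries. Both overlapped between groups.

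Of the linker proteins, Nid1 had 3847, 3783 and 3759 CPM in mitochondria libraries and 3690, 3717 and 3613 CPM in control libraries. Each mitochondria library was above each control, by a log2 fold change of 0.047 (SE 0.023) that did not pass (edgeR adjusted p = 0.351) and was negative with FPKM or TPM. Nid2, its lower-expressed paralog here, had 10.2, 10.4 and 11.6 CPM in mitochondria libraries and 8.13, 9.05 and 9.65 CPM in control libraries, at 0.26 (SE 0.12, edgeR adjusted p = 0.322). These groups did not overlap either. Nid2 shares 437 of its 5174 exonic bases with Rtraf on the other strand, and counts of the pair are not separable there if strand was not used.

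Hspg2 came closest to the threshold from outside. It had 355, 341 and 355 CPM in mitochondria libraries, against 384, 381 and 389 CPM in control libraries, with no overlap. Its log2 fold change was −0.14 (SE 0.033, edgeR adjusted p = 0.059, and adjusted p = 0.00118 in DESeq2). It also passed in edgeR with library totals, with the replicate block and at a mean FPKM of at least 5 (adjusted p = 0.0274, 0.0252 and 0.0386). Agrn, like Hspg2 a heparan sulfate proteoglycan, had 16.8, 15.8 and 14.6 CPM in mitochondria libraries and 14.8, 14.9 and 14.2 CPM in control libraries, with overlap and a log2 fold change, negative with TPM, of 0.10 (SE 0.10, edgeR adjusted p = 0.672).

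**Figure D4:**
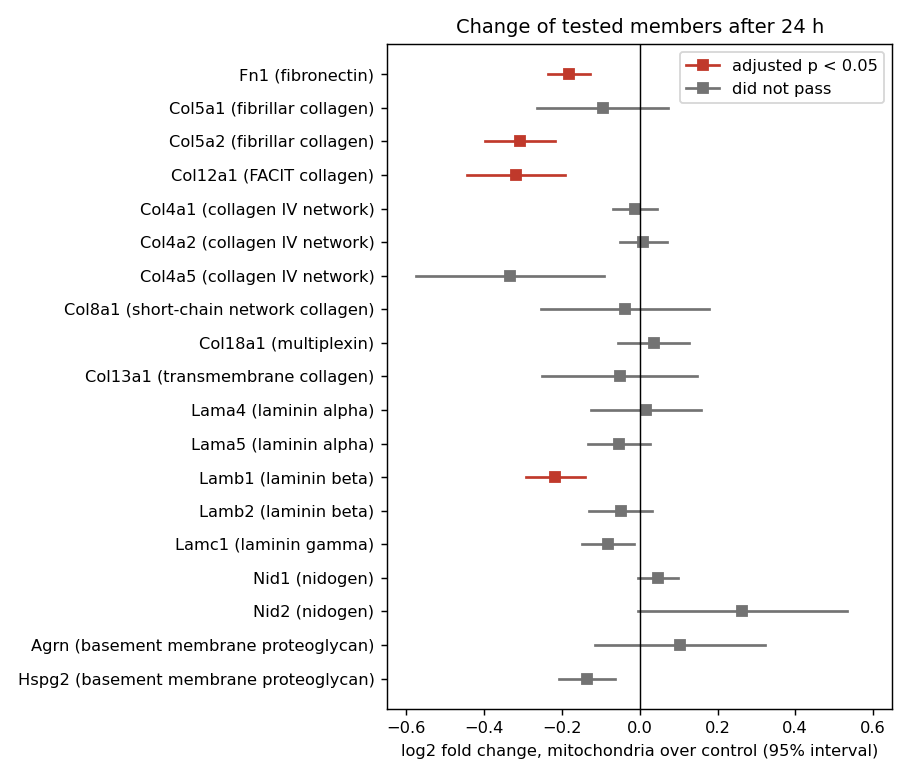
Log2 fold change of mitochondria over control for 19 of the 20 tested genes with 95% intervals, ordered by family, in red where the adjusted p in edgeR was under 0.05. Fn1, Col5a2, Col12a1 and Lamb1 lie between −0.32 and −0.18, and Col4a5 has a fold change as low but an interval from −0.58 to −0.09 and did not pass.

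Bases before the annotated start are shown for Lamb1, which fell, and for Nid1 and Hspg2, 2 basement membrane genes that did not pass in edgeR, to set their upstream sequence side by side. Hspg2 was called lower with DESeq2 and in some other settings, as given above. No promoter entry was matched for Fn1, Col5a2 and Col12a1, the other genes that fell. RefSeq (build GRCm38.p6) gave the sequences, which end 1 base before the start in the deposited table. Capitals mark matches to any of 5 motifs searched on both strands.
Lamb1, chr12:31265043-31265233, plus strand: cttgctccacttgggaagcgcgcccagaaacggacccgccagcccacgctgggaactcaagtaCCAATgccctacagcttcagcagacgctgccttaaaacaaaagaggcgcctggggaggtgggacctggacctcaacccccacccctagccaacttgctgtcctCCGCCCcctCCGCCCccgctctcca
Nid1, chr13:13437352-13437550, plus strand: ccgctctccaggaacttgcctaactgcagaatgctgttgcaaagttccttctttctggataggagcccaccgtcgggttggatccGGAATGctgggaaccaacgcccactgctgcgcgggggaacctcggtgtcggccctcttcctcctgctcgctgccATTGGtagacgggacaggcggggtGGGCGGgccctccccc
Hspg2, chr4:137468553-137468768, plus strand: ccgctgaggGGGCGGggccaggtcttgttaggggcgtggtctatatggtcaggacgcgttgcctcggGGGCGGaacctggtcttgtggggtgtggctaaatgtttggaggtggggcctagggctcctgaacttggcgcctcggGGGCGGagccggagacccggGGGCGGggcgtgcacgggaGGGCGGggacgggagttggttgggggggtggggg

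The stretches held 63.9%, 63.8% and 70.8% G or C for Lamb1, Nid1 and Hspg2. Lamb1 had 2 GC boxes (GGGCGG) and 1 CCAAT box, Nid1 had 1 of each and 1 TEAD motif (GGAATG), and Hspg2 had 5 GC boxes. No TATA box (TATAAA) or AP-1 motif (TGANTCA) was found in these 3 stretches. The stretches are 191, 199 and 216 bases long, since the 250 bases before the RefSeq start were cut at the deposited start. The shares that follow are over the full 250 bases before the RefSeq start, an unlike length. Of all 32851 RefSeq promoters searched, 32.7% held a GC box, 33.8% a CCAAT box, 12.6% a TEAD motif, 12.4% a TATA box and 6.75% an AP-1 motif. Promoter entries were matched for 41 of the 58 genes, with 45 starts, of which 27 held a GC box, 14 a CCAAT box, 6 a TEAD motif, 5 a TATA box and 1 an AP-1 motif. These are letter matches and no evidence of binding.

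Over the 20 tested genes, 13 had a log2 fold change below 0 and the median was −0.05, beside a median of 0.0011 over all 11255 tested genes, of which 49.6% were below 0. The groups did not overlap in CPM for 10 of the 20, 7 of them lower and 3 higher in mitochondria libraries. Among all tested genes 11.0% did not overlap on the lower side and 10.1% on the higher side, 21.1% in all. In FPKM 10 of the 20 did not overlap on the lower side and 1 on the higher, where 21.4% and 4.14% of all tested genes did. The median SE of the log2 fold change was 0.042 over the 20 genes and 0.079 over all tested genes, and 5 of the 20 (Col13a1, Col8a1, Agrn, Col4a5 and Nid2) were above the second value. Within a group the coefficient of variation of their CPM ranged from 0.43% to 14.1%.

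**Figure D5:**
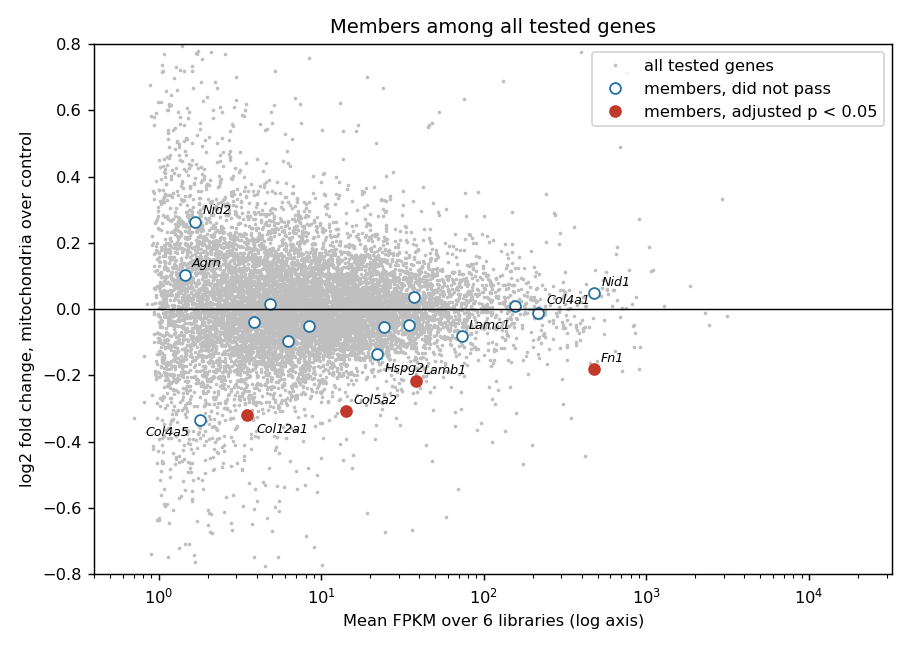
Log2 fold change of mitochondria over control against mean FPKM over 6 libraries (log axis) for all 11255 tested genes in grey, with 19 of the 20 genes as circles, filled red where called in edgeR. The y axis is limited to ±0.8, which leaves out 99 genes, and the 4 called genes span levels of 3.5 to 473 FPKM.

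The 38 genes below the filter had a mean of at most 0.434 FPKM. Col26a1 and Col9a2 had 0 counts in all 6 libraries, which allows up to 3 counts, or 0.0443 to 0.0520 CPM, in each. Another 5 had at most 10 counts in any library. Col6a1, Col6a2 and Col6a3, the chains of collagen VI, had at most 66 counts in any mitochondria library and at most 40 in any control library. Col7a1, the anchoring fibril collagen, had 293, 315 and 238 counts in mitochondria libraries and 284, 313 and 268 in control libraries. Lama1 and Lama2, alpha chains of other tissues, had 16 to 107 counts in mitochondria libraries and 24 to 74 counts in control libraries. In the edgeR fit without a filter the lowest adjusted p among the 38 was that of Col1a1, 0.521, and Col5a2 was the only one of the 58 called.

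Of the genes that process, accompany or bind these proteins, 2 changed, where 2.09% of all tested genes changed. Of 26 tested genes of collagen synthesis and crosslinking 1 fell and 25 did not pass, with a median log2 fold change of −0.035. The gene that fell was Tll1, a tolloid-like protease that trims procollagens, with 31.5, 34.2 and 28.1 CPM in mitochondria libraries, against 46.8, 45.5 and 42.3 CPM in control libraries (log2 fold change −0.52, SE 0.079, edgeR adjusted p = 0.0071). P4hb, a subunit of the prolyl hydroxylase that stabilises the collagen helix, had 710, 667 and 687 CPM in mitochondria libraries and 750.0, 712 and 728 CPM in control libraries and did not pass (−0.085, SE 0.034). P4ha1, the catalytic subunit of that enzyme, was the next most abundant on the FPKM scale and did not pass either (0.016, SE 0.062).

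Of 7 other tested basement membrane genes 1 rose and 6 did not pass, with a median of −0.011. Ecm1, a secreted glycoprotein that binds perlecan, had 168, 158 and 172 CPM in mitochondria libraries, against 136, 136 and 136 CPM in control libraries (log2 fold change 0.28, SE 0.041, edgeR adjusted p = 0.00574). The calls of Tll1 and Ecm1 held with each library left out in turn, and both were lost with limma on FPKM, with the covariate and without a filter. With limma on log2(TPM + 1) Ecm1 was at 0.12 and did not pass (adjusted p = 0.230), while Tll1 was at −0.64 and passed (adjusted p = 0.0243). Sparc, a collagen-binding protein, was the most abundant of this list and at 0.037 (SE 0.026), and Timp3, a matrix-bound protease inhibitor, at −0.056 (SE 0.029). None of 16 tested laminin and collagen receptors passed in the edgeR fit used for the calls above, with a median of 0.06. At an unadjusted p under 0.05, 2 were lower and 4 higher, where 8.28% of all tested genes were lower and 7.82% higher. DESeq2, which called 5.31% of all genes (2.38% higher), called Itgb1 lower and Itgb4 and Sdc4 higher, while limma on FPKM called none. Itgb1, the common integrin beta chain, had 1673, 1798 and 1725 CPM in mitochondria libraries, against 1819, 1882 and 1841 CPM in control libraries, at −0.093 (SE 0.031, edgeR adjusted p = 0.163). With library totals and with the replicate block it passed in edgeR as lower (adjusted p = 0.0401 and 0.0330). Itga3, a laminin-binding alpha chain and the next most abundant, was at −0.0069 (SE 0.031). Itgb4, the beta chain of the laminin-binding integrin of hemidesmosomes, had 75.3, 77.0 and 69.9 CPM in mitochondria libraries, against 57.6, 52.6 and 67.4 CPM in control libraries, at 0.32 (SE 0.079, edgeR adjusted p = 0.0612). With the replicate block and without control 3 it passed in edgeR as higher (adjusted p = 0.0464 and 0.0196). None of 4 tested elastic fibre genes passed in the same edgeR fit, with 1 lower at an unadjusted p under 0.05. That was Ltbp1, which binds latent TGF-beta in the matrix, at −0.13 (SE 0.032, edgeR adjusted p = 0.0664), and DESeq2 called it lower. So did edgeR with library totals and with the replicate block (adjusted p = 0.0220 and 0.0344). Ltbp3, of the same family, was the next most abundant at 0.057 (SE 0.081).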

How the data were processed

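The deposited table gives raw counts and FPKM per gene and library, both made by the authors, per the file headers. Named in the submitters' processing notes are cutadapt 1.9, HISAT2 2.2.1, StringTie 2.1.6, DESeq2, edgeR and build GRCm38. Neither their settings nor the use of strand in counting is stated in the sources used here, while the library kit was a stranded one for mRNA, per the labels' protocols. Counts of 11255 genes with FPKM of at least 1 in at least 3 libraries were fitted here with edgeR 4.0.16 (R 4.3.3; TMM, quasi-likelihood test, group as the only term, two-sided). Each SE is the size of the log2 fold change divided by the root of F. Alternatives used DESeq2 1.42.0, limma 3.58.1 on FPKM or on TPM computed from it, other scalings and filters, the ribosomal share as covariate, and each library left out. The fits were first tested on simulated data. There 48% of 1.2-fold, 72% of 1.5-fold and 98% of 2-fold changes were recovered, with 7.6% false calls. A gene that did not pass may therefore still have changed by a small amount. The members and all lists were chosen with earlier results of these data known. Genes given in full are those called, the 10 with the highest mean FPKM and a list of main chains, and, for each other list, the called and the 2 most abundant genes. Further genes in the receptor list were named for their DESeq2 calls, after their values were seen. The values of 1 tested member are not reported here. All 58 members were found in GENCODE M21, 51 with the same start and end.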

Additional observations from a re-analysis of the deposited data

How the results depend on the processing

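Over 17 other settings no member was called higher, and the 4 that fell kept a negative log2 fold change wherever fitted. Its size moved: over these settings it ranged from −0.34 to −0.15 for Fn1, −0.37 to −0.19 for Lamb1, −0.46 to −0.28 for Col5a2 and −0.44 to −0.26 for Col12a1, and the largest size of each was with limma on log2(TPM + 1). The number that fell was 4, and 5 with DESeq2, with library totals or with the replicate block (Hspg2 added). It was 2 with limma on log2(FPKM + 1) or log2(FPKM + 0.1), 1 without a filter (Col5a2) and 0 with the ribosomal share as covariate. With 1 library left out it was 2 to 4 (2 without control 3). With the covariate the median SE of the members was 0.0764, against 0.0416. Calls over all genes were 235, and 598 with DESeq2, 39 and 36 with limma on FPKM with pseudocounts of 1 and 0.1, 3 with the covariate, 22 without a filter and 68 to 233 with 1 library left out. Of the 235, 124 were lower and 111 higher. With library totals as scaling 292 were lower and 61 higher, and with limma on TPM 308 and 20, where the median of all genes was −0.046 and −0.15. The other lists had 2 calls, and 6 with DESeq2, 0 with limma at either pseudocount, with the covariate or without a filter, 4 with library totals, 1 at a mean FPKM of at least 5, and 2 to 3 with 1 library left out. The cause of these differences was not tested.

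Of 317 values of single members 28 changed sign, all from members that were not called. With limma on log2(FPKM + 1), log2(FPKM + 0.1) and log2(TPM + 1), the log2 fold change was −0.013, −0.014 and −0.11 for Nid1, −0.052, −0.052 and −0.15 for Col4a2, −0.023, −0.024 and −0.12 for Col18a1, and −0.039, −0.046 and −0.14 for Lama4. With TPM it was −0.047 for Agrn. With library totals it was −0.038 for Col4a2, −0.011 for Col18a1 and −0.033 for Lama4. With the covariate it was −0.011 for Col4a2, 0.037 for Lamb2 and −0.046 for Lama4. With 1 library left out it ranged from −0.022 to 0.0023 for Col4a1, −0.0057 to 0.019 for Col4a2, −0.13 to 0.055 for Col13a1, −0.031 to 0.087 for Lama4 and −0.15 to 0.055 for Col8a1. Without CT010467 and Lars2, the members' share of counts was 1.62% in mitochondria and 1.70% in control libraries.

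With 1 library left out, the difference in log2 ratio ranged from 0.033 to 0.13 for Lama4/Lama5, −0.21 to −0.14 for Lamb1/Lamb2, −0.038 to −0.0039 for Col4a1/Col4a2 and 0.15 to 0.27 for Col5a1/Col5a2. Same-numbered libraries correlated in their deviations from the group means by 0.067, 0.068 and 0.035 over tested genes, and mitochondria 1 and 3 correlated best with controls 3 and 2, so the numbers were not taken as pairs. With the replicate block 394 genes were called, 5 members were lower (Hspg2 added) and 5 genes of the other lists were called.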
